A study of Mus musculus with 16 samples.

Results

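A set of 10 genes of the NF-κB feedback and adaptor machinery were followed through primary murine gingival fibroblasts (mGF) given palmitate, IL-1β or both. The members were Tnfaip3, Tnip1 and Cyld (ubiquitin editing), Zc3h12a (mRNA decay), Traf1, Birc3 and Ripk2 (receptor-proximal adaptors and a kinase) and Card10, Bcl10 and Malt1 (the CARD-BCL10-MALT1 scaffold), 10 of 56941 genes in the deposited count table. They were chosen by gene symbol, and all 10 were among the 16306 genes that passed the filter on low counts. The list was drawn up by function when results of these libraries were already known, so no count of its members is independent evidence. Card10 had been picked out earlier for the size of its fall when IL-1β was added, with or without palmitate, and its values in those comparisons, and in every other comparison that uses the IL-1β or combined libraries, are therefore given as a description with no p and kept out of the counts.

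The cells came from gingival explants of wild-type C57Bl6 mice aged 3 to 6 months and were used between passages 2 and 8. There were 16 bulk RNA-seq libraries, 4 in each of 4 conditions: BSA (200 µM vehicle, control), IL-1β (1 ng/mL), palmitate (200 µM, complexed with BSA) and the combination palmitate + IL-1β in unchanged doses, all harvested after 24 h. The labels do not state whether BSA vehicle accompanied IL-1β alone, although the study describes vehicle given with or without IL-1β in its cell treatments. Nor do the labels state that the 4 libraries of a condition came from separate cultures or animals. The p-values therefore measure only the spread between these libraries, which may be technical. Palmitate is a saturated fatty acid used to model lipid excess, and IL-1β is a cytokine of inflamed gingiva.

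IL-1β and related signals activate NF-κB by building ubiquitin chains on adaptor proteins, which gather the TAK1 and IKK kinases, free NF-κB from its IκB inhibitors and switch on inflammatory genes. Among the genes that NF-κB switches on are its own brakes: A20 (Tnfaip3) and its partner ABIN1 (Tnip1) and the deubiquitinase CYLD remodel or remove the ubiquitin chains, and Regnase-1 (Zc3h12a) degrades inflammatory mRNA. A separate scaffold of CARMA3 (Card10), BCL10 and MALT1 carries signals from G protein-coupled and growth factor receptors to IKK in cells outside the immune system.

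Reads assigned to genes numbered 21234789 to 92752515 per library, the deepest being palmitate replicate 10 and the next 35329711, so members are compared as CPM, counts on a common library size of 1e+06, with sizes scaled by the trimmed mean of M-values. At these depths the limit that 3 counts set was 0.0331 to 0.146 CPM. The libraries carried fibroblast RNA: all 9 fibroblast markers (collagens, Pdgfra, Vim and others) were found, at 28473 to 33713 CPM summed per library. The 8 epithelial markers summed to 0.288 to 0.886 CPM and the 8 leukocyte markers to 2.07 to 3.28 CPM, with Krt6a at 0 counts in every library. The 5 endothelial markers summed to 1.43 to 2.29 CPM. The fibroblast sum was 28473 to 30460 CPM under palmitate + IL-1β against 31596 to 33496 CPM in BSA, and the part of this shift in the members' results was not tested. Single markers did not all follow the sum. By the test given below, 6 of the 9 were lower, 2 were not called and 1, Pdgfra, was higher (213.1 CPM in BSA, 306.7 CPM with both), against 22.5% of all genes lower and 24.8% higher. In bulk RNA, a change in the share of cells expressing a gene and a change in RNA per cell cannot be told apart.

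Of the 9 members other than Card10, 8 were higher under palmitate + IL-1β than in BSA (Tnfaip3, Tnip1, Cyld, Zc3h12a, Traf1, Birc3, Ripk2 and Bcl10), while Malt1 did not pass the test. Over all tested genes 47.3% were called in that comparison, 24.8% higher and 22.5% lower, at a Benjamini-Hochberg adjusted p under 0.05 from edgeR's quasi-likelihood test (called edgeR adjusted p from here on). Palmitate alone raised these 8 members and lowered Card10, against 37.3% of all genes called, 19.8% higher and 17.5% lower. IL-1β alone raised the 8 as well, of 9 members counted, against 15.1% of all genes called, with 10.1% of all genes higher. The median log2 fold change of the 10 members against BSA was 0.87 with IL-1β, 1.12 with palmitate and 1.34 with both, and that of all tested genes lay between -0.005 and 0.002. These comparisons share the BSA libraries and are not independent of each other. Traf1 passed the filter on low counts only through its treated libraries, so its place among the 8 is no independent support.

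**Figure D1:**
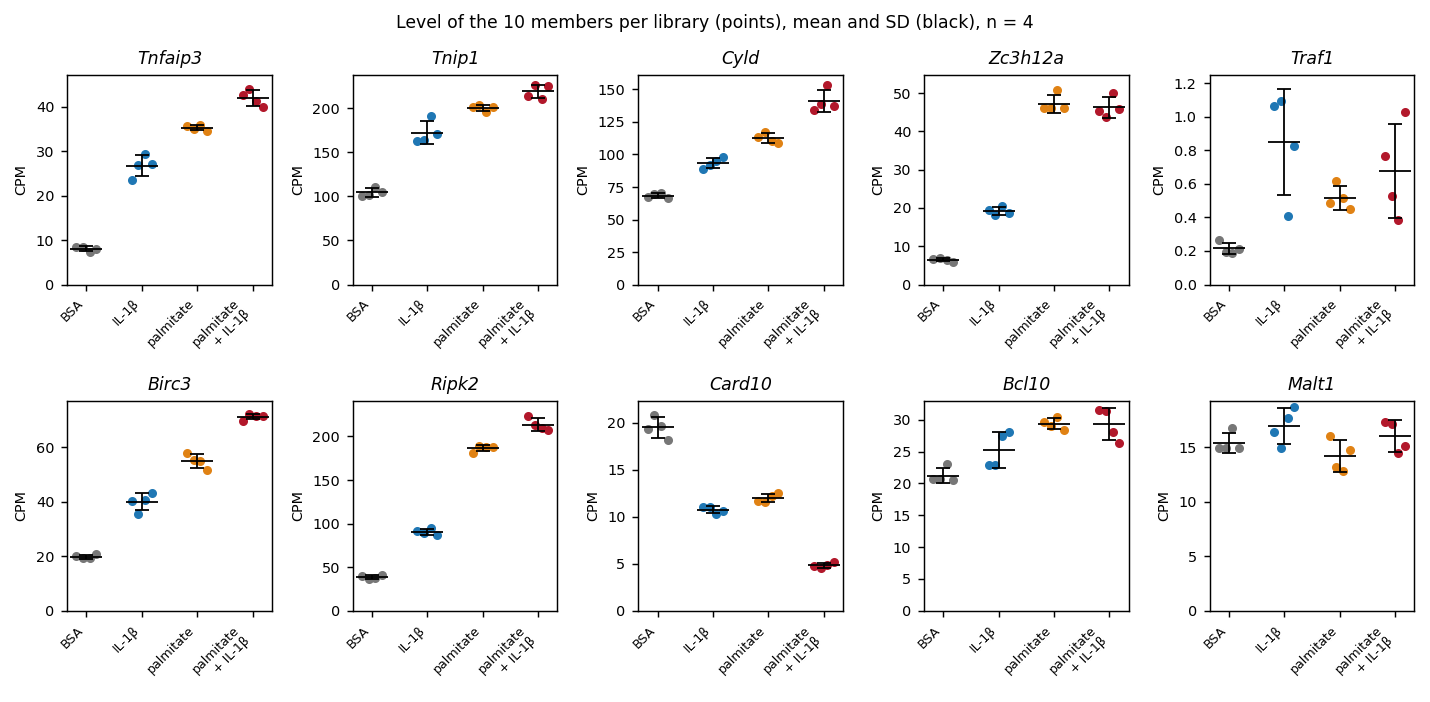
Levels of the 10 members (y axis, CPM from 0, a separate scale in each panel) in the 4 conditions (x axis), with a point per library, a bar at the mean and whiskers of 1 SD (n = 4). Card10 is the member whose mean lies below BSA in every treated condition by more than the spread, at 19.5 CPM in BSA and 4.85 CPM with both agents, while Zc3h12a reaches 47.2 CPM with palmitate alone and 46.2 CPM with both.

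Tnfaip3, on chromosome 10 (18874201 to 18891405, minus strand, GRCm39), encodes A20, which edits the ubiquitin chains on RIP and TRAF proteins. Its level was 7.40, 8.00, 8.44 and 8.50 CPM in the BSA libraries and 23.6, 27.0, 27.2 and 29.4 CPM with IL-1β. It was 34.7, 35.1, 35.7 and 35.9 CPM with palmitate and 40.0, 41.3, 42.7 and 44.0 CPM with palmitate + IL-1β. The 4 conditions formed separate ranges in the order BSA, IL-1β, palmitate and palmitate + IL-1β, with no overlap between neighbours. Over all tested genes, 11.1% lay wholly higher with IL-1β than in BSA, 16.5% with palmitate than with IL-1β and 9.16% with both than with palmitate. The same shares stand beside the ranges of the members below. The log2 fold change against BSA was 1.73 (SE 0.07, edgeR adjusted p = 5.4e-19) with IL-1β, 2.12 (SE 0.07, edgeR adjusted p = 1.9e-22) with palmitate and 2.37 (SE 0.06, edgeR adjusted p = 5.9e-24) with both. Palmitate added 0.65 (SE 0.06, edgeR adjusted p = 9.1e-11) to the IL-1β level, whereas IL-1β added 0.25 (SE 0.06, edgeR adjusted p = 0.0026) to the palmitate level.

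Tnip1 (chromosome 11, 54796320 to 54854661, minus strand) encodes ABIN1, which holds A20 at ubiquitin chains. Its level ranged in CPM from 100.3 to 110.9 in BSA, 163.2 to 191.5 with IL-1β, 195.5 to 204.2 with palmitate and 210.8 to 226.5 with both. The conditions again stood in the same order without overlapping, but over a narrower span than Tnfaip3, with a log2 rise of 0.72 (SE 0.05), 0.94 (SE 0.05) and 1.07 (SE 0.05) over BSA. All 3 rises passed the test (edgeR adjusted p of 3.2e-13 or less). The step from palmitate to palmitate + IL-1β did not pass it, at 0.13 with a 95% interval of 0.03 to 0.22 (edgeR adjusted p = 0.079). Tnip1 shares 25.3% of its exon length with Gpx3 on the opposite strand, and Gpx3 held 51 to 262 counts per library against 2906 to 18530 for Tnip1.

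Cyld (chromosome 8, 89423468 to 89478574, plus strand) encodes a deubiquitinase that trims linear and other non-degradative ubiquitin chains. Its level lay between 66.3 and 70.5 CPM in BSA, 89.2 and 97.7 with IL-1β, 108.6 and 117.1 with palmitate, and 134.2 and 153.6 with both. Again no neighbouring conditions overlapped. The log2 rise over BSA was 0.45 (SE 0.05) with IL-1β, 0.72 (SE 0.05) with palmitate and 1.04 (SE 0.05) with both, and every step between conditions passed the test, the smallest being palmitate over IL-1β at 0.27 (SE 0.05, edgeR adjusted p = 2.4e-05).

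The promoters of the members were searched for the 10-letter κB consensus, the sequence that NF-κB dimers bind, because 8 of the members rose together. RefSeq windows of 250 bases before to 50 after a start (table build GRCm38.p6, placed on GRCm39 by exact match) were at hand for 8 of the 10 members, and not for Ripk2 and Malt1. A match on either strand lay within 4 of the 9 windows of these 8 members (1 each of Tnfaip3, Tnip1, Cyld and Bcl10), in 8.46% of all 32851 windows and 10.5% of the 13907 windows of tested genes. The sequences around the matches, 30 bases each with the matching letters in capitals and read 5′ to 3′ along the gene's strand, were as follows.
Tnfaip3, chr10:18891264-18891293, minus strand: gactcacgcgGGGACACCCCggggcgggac
Tnfaip3, chr10:18891159-18891188, minus strand: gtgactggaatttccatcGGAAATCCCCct
Tnip1, chr11:54853804-54853833, minus strand: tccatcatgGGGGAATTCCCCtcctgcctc
Cyld, chr8:89423491-89423520, plus strand: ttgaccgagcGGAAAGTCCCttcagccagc
Bcl10, chr3:145629767-145629796, plus strand: gcgaaggcgGGGAGATCCCgctaaactgag

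Counted from the RefSeq start, with bases before it negative, the Tnfaip3 matches began at -125 and -12, those of Tnip1 (overlapping positions in 1 run of capitals) at -58, that of Cyld at -155 and that of Bcl10 at -241. Apart from the Tnfaip3 match farther from the start, these letters lie inside an exon of a longer transcript in the GENCODE annotation. No match lay in the windows of Birc3, Traf1, Zc3h12a or Card10. The exon-free bases upstream of Zc3h12a, which rose most in fold against BSA under palmitate, and of Card10, which fell, are shown for comparison and contain no capitals.
Zc3h12a, chr4:125021712-125021924, minus strand: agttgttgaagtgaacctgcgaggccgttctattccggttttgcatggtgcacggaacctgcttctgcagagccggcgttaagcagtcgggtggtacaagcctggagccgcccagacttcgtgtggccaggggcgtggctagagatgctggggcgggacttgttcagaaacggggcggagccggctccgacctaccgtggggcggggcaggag
Card10, chr15:78687261-78687492, minus strand: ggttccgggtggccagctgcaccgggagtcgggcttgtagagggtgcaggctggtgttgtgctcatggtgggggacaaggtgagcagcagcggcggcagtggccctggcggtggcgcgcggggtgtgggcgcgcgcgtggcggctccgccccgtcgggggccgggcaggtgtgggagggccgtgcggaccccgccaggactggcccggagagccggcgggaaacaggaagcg

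A match describes letters and not binding, and the lack of one says only that these letters are not in this window. Members with and without a match both rose: Zc3h12a, with none, had the largest log2 rise against BSA under palmitate (2.86), and Bcl10, with one, had a rise of 0.47.

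Zc3h12a (chromosome 4, 125012216 to 125021711, minus strand) encodes Regnase-1, an endonuclease that cleaves mRNA of cytokines such as Il6. Its level was 5.87, 6.45, 6.69 and 6.91 CPM in BSA and 18.3, 18.7, 19.5 and 20.5 CPM with IL-1β. With palmitate it was 46.0, 46.0, 46.1 and 50.8 CPM, and with both agents 43.6, 45.3, 45.9 and 50.1 CPM. IL-1β thus stood between BSA and palmitate, while the palmitate and palmitate + IL-1β ranges lay over each other. The log2 fold change against BSA was 1.57 (SE 0.07, edgeR adjusted p = 1.4e-17) with IL-1β, 2.86 (SE 0.07, edgeR adjusted p = 7.6e-26) with palmitate and 2.83 (SE 0.07, edgeR adjusted p = 7.9e-26) with both. The difference between palmitate + IL-1β and palmitate was -0.03, with a 95% interval of -0.14 to 0.08 (edgeR adjusted p = 0.81).

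Ripk2 (chromosome 4, 16121400 to 16163796, minus strand) encodes the kinase through which the peptidoglycan sensors NOD1 and NOD2 reach NF-κB. Its level was 36.7, 37.1, 39.7 and 41.3 CPM in BSA and 87.3, 88.8, 91.2 and 95.2 CPM with IL-1β. It was 181.1, 187.6, 188.2 and 188.5 CPM with palmitate and 207.8, 209.4, 212.8 and 224.0 CPM with palmitate + IL-1β. Each condition lay wholly above the one before it. Palmitate raised Ripk2 by 2.27 on the log2 scale over BSA (SE 0.05, edgeR adjusted p = 3.4e-27) and IL-1β by 1.23 (SE 0.05, edgeR adjusted p = 1.9e-19), and palmitate stood 1.04 above IL-1β (SE 0.04, edgeR adjusted p = 1.6e-18). IL-1β added 0.20 to palmitate (SE 0.04, edgeR adjusted p = 0.0019).

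Birc3 (chromosome 9, 7845790 to 7873229, minus strand) encodes cIAP2, a ubiquitin ligase that builds chains on RIP kinases. Its level ranged in CPM from 19.2 to 20.9 in BSA, 35.6 to 43.3 with IL-1β, 51.6 to 57.8 with palmitate and 69.7 to 72.01 with both, again without overlap. The log2 rise over BSA was 1.01 (SE 0.06), 1.46 (SE 0.05) and 1.84 (SE 0.05) in that order, and IL-1β added 0.38 to palmitate (SE 0.05, edgeR adjusted p = 1.7e-06), the largest such rise among the 9 members tested there. Its longest transcript shares 6.23% of its bases with Gm7019 and 2.67% with the neighbouring paralog Birc2 at 95% identity or more, so a small part of its reads could have been assigned to more than 1 gene and left uncounted.

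Traf1 (chromosome 2, 34831762 to 34851837, minus strand) encodes an adaptor that binds TRAF2 and cIAP proteins, and it was the scarcest member. Its level was 0.191, 0.194, 0.210 and 0.266 CPM in BSA, resting on 5 to 9 counts per library, and 0.412, 0.83, 1.06 and 1.09 CPM with IL-1β. With palmitate it was 0.452, 0.486, 0.514 and 0.617 CPM, and with both agents 0.386, 0.529, 0.765 and 1.03 CPM. All treated libraries were above all BSA libraries, but the 3 treated ranges overlapped. Of all tested genes, 11.1% lay wholly above BSA with IL-1β, 19.5% with palmitate and 22.2% with both. The log2 rise over BSA was 1.92 with IL-1β (SE 0.37, edgeR adjusted p = 3.6e-04), 1.30 with palmitate (SE 0.38, edgeR adjusted p = 0.0076) and 1.62 with both (SE 0.38, edgeR adjusted p = 6.7e-04). Every BSA library held fewer than 10 counts, the minimum of the filter, so Traf1 entered the test only through treated libraries. Its adjusted p against BSA are therefore a description and no independent support for a rise. The palmitate call rested on the deepest library: without palmitate replicate 10 the rise was 1.14 (edgeR adjusted p = 0.052). None of the differences among the treated conditions passed the test, palmitate against IL-1β being -0.63 with a 95% interval of -1.27 to 0.01, although without IL-1β replicate 7 that difference was -0.89 (edgeR adjusted p = 0.027).

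Card10 (chromosome 15, 78659324 to 78687260, minus strand) encodes CARMA3, the scaffold on which BCL10 and MALT1 assemble. Its level was 18.2, 19.4, 19.6 and 20.9 CPM in BSA and 10.3, 10.6, 11.0 and 11.1 CPM with IL-1β. It was 11.6, 11.7, 12.2 and 12.6 CPM with palmitate and 4.57, 4.76, 4.92 and 5.16 CPM with both, on 138 to 168 counts per library. Each agent alone left 55.1% (IL-1β) and 61.6% (palmitate) of the BSA level, and both together left 24.9%. Every combined library was below every library with a single agent. Of all tested genes, 14.6% lay wholly lower with both agents than with IL-1β and 7.59% than with palmitate. The fall with palmitate was -0.70 on the log2 scale (SE 0.07, edgeR adjusted p = 2.3e-10), in a comparison that shares its BSA libraries with one for which Card10 had been picked out. As a description with no test, the log2 difference was -0.86 (SE 0.07) from BSA to IL-1β, -1.30 (SE 0.08) from palmitate to both, -2.01 (SE 0.07) from BSA to both and -1.15 (SE 0.08) from IL-1β to both. Palmitate stood above IL-1β by 0.16, with a 95% interval of 0.01 to 0.30.

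Bcl10 (chromosome 3, 145628559 to 145641006, plus strand) encodes the adaptor that polymerises on CARD scaffolds. Its level was 20.6, 20.6, 20.6 and 23.1 CPM in BSA and 22.8, 22.9, 27.4 and 28.1 CPM with IL-1β, so these ranges overlapped. With palmitate it was 28.5 to 30.4 CPM and with both 26.3 to 31.5 CPM. Palmitate and palmitate + IL-1β each raised it by 0.47 on the log2 scale over BSA (SE 0.07, edgeR adjusted p = 1.6e-06 and 1.1e-06). The smaller rise with IL-1β, 0.25 (SE 0.07, edgeR adjusted p = 0.012), depended on single libraries, being 0.21 without IL-1β replicate 7 (edgeR adjusted p = 0.063) and 0.20 without IL-1β replicate 8 (edgeR adjusted p = 0.064). The difference of both agents from IL-1β, 0.21 (SE 0.07, edgeR adjusted p = 0.014), likewise lost its call without IL-1β replicate 5 or 6 or palmitate + IL-1β replicate 13 or 14, where it was 0.17 (edgeR adjusted p = 0.066, 0.073, 0.077 and 0.067). That of palmitate from IL-1β, 0.21 (SE 0.07, edgeR adjusted p = 0.017), lost it without IL-1β replicate 5 (0.17, edgeR adjusted p = 0.074), IL-1β replicate 6 (0.17, edgeR adjusted p = 0.082) or palmitate replicate 11 (0.20, edgeR adjusted p = 0.0505).

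Malt1, on chromosome 18, encodes the paracaspase of the same complex, which cleaves A20, CYLD and Regnase-1 among other substrates. Its level ranged in CPM from 14.9 to 16.7 in BSA, 15.0 to 18.7 with IL-1β, 12.9 to 16.0 with palmitate and 14.5 to 17.4 with both, and all of these ranges overlapped. None of the comparisons with BSA passed the test, and their 95% intervals ran from -0.02 to 0.31 with IL-1β, -0.29 to 0.04 with palmitate and -0.10 to 0.23 with both. Palmitate stood below IL-1β by -0.27 (SE 0.08, edgeR adjusted p = 0.0094), a difference that was -0.23 without palmitate replicate 10 (edgeR adjusted p = 0.061). The 3 genes of the scaffold therefore gave 3 different patterns in the same libraries: Card10 lower, Bcl10 modestly higher and Malt1 not separated from BSA.

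**Figure D2:**
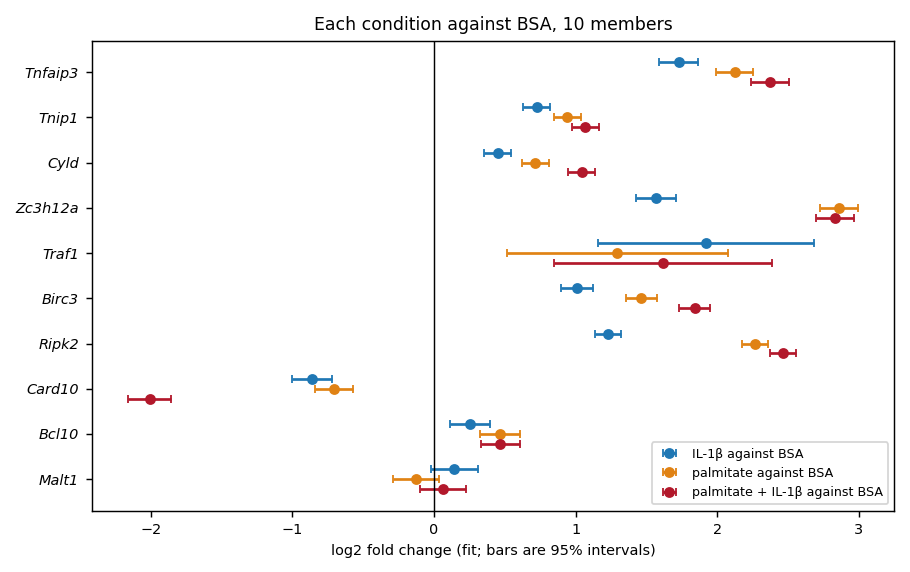
Log2 fold change against BSA (x axis) of the 10 members (y axis) with IL-1β, palmitate and palmitate + IL-1β, as points with 95% intervals from the fit to all 16 libraries. With both agents the values run from -2.01 for Card10 to 2.83 for Zc3h12a, the intervals of Traf1 are the widest, and those of Malt1 include 0.

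Comparing the treatments directly, palmitate at 200 µM was above IL-1β at 1 ng/mL in 7 members and below it in Malt1, against 31.6% of all genes called, 16.5% higher and 15.2% lower. The largest difference was that of Zc3h12a, at 1.29 (SE 0.06, edgeR adjusted p = 8.9e-18), followed by Ripk2, while Tnip1 differed by 0.22 (SE 0.05, edgeR adjusted p = 5.0e-04). With IL-1β present, palmitate raised 7 of the 9 members other than Card10, against 35.0% of all genes called, 18.9% higher and 16.1% lower. With palmitate present, IL-1β raised 4 of 9 members tested (Tnfaip3, Cyld, Birc3 and Ripk2), against 9.81% of all genes called and 5.71% called higher, and their log2 changes lay between 0.20 and 0.38.

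Whether the effects of the agents simply added was asked through the interaction, the log2 change with both agents minus the sum of their separate log2 changes. It was negative and past the threshold for 5 of the 9 members other than Card10, where 1.99% of all genes had one past it and 1.83% a negative one: Zc3h12a (-1.60, SE 0.09, edgeR adjusted p = 1.8e-14), Tnfaip3 (-1.48, SE 0.09, edgeR adjusted p = 1.0e-13), Ripk2 (-1.03, SE 0.06, edgeR adjusted p = 1.4e-13), Birc3 (-0.63, SE 0.07, edgeR adjusted p = 4.8e-07) and Tnip1 (-0.60, SE 0.07, edgeR adjusted p = 1.9e-07). For these 5 members the combined level fell short of the product of the separate folds. For Card10 the value was -0.44 (SE 0.10), given with no test because it is the difference of the changes for which Card10 had been picked out, and its combined level of 4.85 CPM was below the 6.61 CPM that the product of the separate folds gives. The interaction of Cyld was -0.12 (95% interval -0.26 to 0.01, edgeR adjusted p = 0.53) and that of Bcl10 -0.25 (95% interval -0.45 to -0.06, edgeR adjusted p = 0.27). That of Traf1 was -1.60 (SE 0.49, edgeR adjusted p = 0.11), and it was -1.86 and past the threshold without IL-1β replicate 7 (edgeR adjusted p = 0.026) and -1.85 without palmitate + IL-1β replicate 16 (edgeR adjusted p = 0.042).

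On the linear scale the picture differed by gene. The BSA level plus both separate rises came to 54.1 CPM for Tnfaip3, and the combined level was 42.0 CPM, lower by -12.1 CPM (SE 1.53). For Zc3h12a the sum was 60.0 CPM against 46.2 CPM observed, for Ripk2 238.3 against 213.5 CPM, and for Tnip1 268.5 against 219.2 CPM (difference -49.4, SE 8.18). Cyld and Birc3 came nearer to their sums: Cyld was observed at 141.0 CPM against 137.4 CPM (difference 3.57, SE 5.17) and Birc3 at 71.2 CPM against 74.9 CPM (difference -3.74, SE 2.13). Card10 turned the other way on this scale, at 4.85 CPM against a sum of 3.24 CPM (difference 1.61, SE 0.641), although it was below the product of its folds. The difference from the sum was -4.08 CPM (SE 2.06) for Bcl10, -0.473 (SE 0.215) for Traf1 and 0.250 (SE 1.39) for Malt1. These sums are descriptions with no test.

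**Figure D3:**
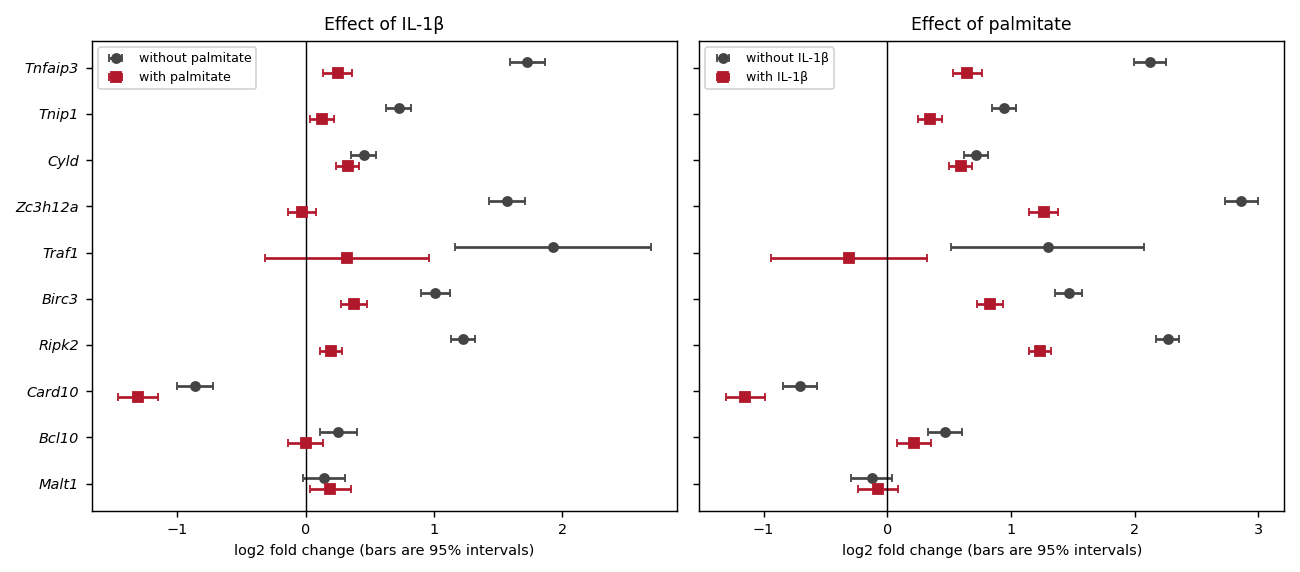
Log2 fold change (x axis) of the 10 members (y axis) with 95% intervals, on the left for IL-1β without palmitate (circles) and with it (squares), on the right for palmitate without IL-1β (circles) and with it (squares). The distance between circle and square is the interaction: for Tnfaip3 the palmitate effect goes from 2.12 to 0.65, for Cyld from 0.72 to 0.59, and for Card10 from -0.70 to -1.15.

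Levels of different genes can be compared only per length, so mean CPM was divided by the length of each gene's combined exons. These can be longer than the longest transcript (13473 against 8554 bases for Cyld, 8872 against 4749 for Traf1), so the order of members may depend on this choice of length. In BSA the most abundant member per kilobase was Tnip1 (10.1 ± 0.451 CPM per kb, SD, n = 4), followed by Ripk2 (6.61 ± 0.372) and Cyld (5.08 ± 0.146), with Card10 next at 3.91 ± 0.222 and Bcl10 at 3.76 ± 0.220, which did not differ beyond their spread. Tnfaip3 (0.833 ± 0.0521) and Malt1 (0.849 ± 0.0507) were also within each other's spread near the bottom, above Traf1 (0.0243 ± 0.00396). With both agents Ripk2 led at 36.5 ± 1.25 CPM per kb, ahead of Tnip1 (21.3 ± 0.750) and Zc3h12a (11.9 ± 0.706), and Card10 was at 0.973 ± 0.0502, beside Malt1 at 0.886 ± 0.0800. The ratios of the scaffold genes thus shifted, Bcl10 being close to Card10 per length in BSA and at 5.19 ± 0.456 CPM per kb with both agents.

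The members were then set beside other genes of the pathway, in lists grouped by function. These lists too were drawn up with earlier results of these libraries known, so no count from them is independent evidence. All 11 NF-κB subunit and IκB genes were higher with both agents than in BSA, against 24.8% of all genes, with a median log2 fold change of 1.30, and 7 of the 11 had a negative interaction past the threshold, against 1.83% of all genes. Nfkbia, encoding the inhibitor IκBα, went from 16.8 ± 0.982 CPM (SD, n = 4) in BSA to 46.8 ± 2.85 with IL-1β, 75.1 ± 1.61 with palmitate and 87.7 ± 1.80 CPM with both, an order like that of Tnfaip3. Nfkbiz, an atypical nuclear IκB, rose by 2.60 (SE 0.06) with both agents and Nfkbie, encoding IκBε, by 1.67 (SE 0.05).

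Of 15 deubiquitinases and A20 partners, 11 were higher and 1 lower with both agents, against 24.8% and 22.5% of all genes, the median log2 fold change was 0.23, and none had an interaction past the threshold. Otud4, a deubiquitinase, rose by 0.63 (SE 0.05), Optn, a ubiquitin-binding receptor, by 0.59 (SE 0.06) and N4bp1, a suppressor of NF-κB signalling, by 0.46 (SE 0.05). Usp18, an interferon-induced deISGylase named after its values were seen, was the largest in that list, at 1.83 ± 0.559 in BSA, 2.66 ± 0.803 with IL-1β, 27.4 ± 3.10 with palmitate and 30.9 ± 8.52 CPM with both. Tnip3, a paralog of Tnip1 also named after its values were seen, rose by 2.48 (SE 0.51) from a very low level, 0.0836 ± 0.0993 CPM in BSA and 0.485 ± 0.0593 CPM with both, on 0 to 45 counts per library. It passed the filter on low counts only through libraries with palmitate. Its rise is therefore a description with no test, and its place among the 11 higher genes is no independent support.

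The next list held 15 tested TRAF, IAP, RIP kinase, LUBAC and NOD receptor genes, relatives or partners of Traf1, Birc3 and Ripk2. With both agents 7 were higher and 4 lower, against 24.8% and 22.5% of all genes. A negative interaction past the threshold was found for 2, against 1.83%. Both receptors upstream of Ripk2 rose: Nod2 from 0.551 ± 0.0262 to 6.27 ± 0.762 CPM (log2 3.50, SE 0.16) and Nod1 from 9.41 ± 0.637 to 20.7 ± 1.56 CPM (log2 1.14, SE 0.07). Traf3, a brake on the non-canonical pathway, rose by 1.04 (SE 0.04). The 4 lower genes, named after their values were seen, were Traf5 (-0.53, SE 0.09), Traf4 (-0.24, SE 0.06), Sharpin (-0.18, SE 0.06) and Ripk3 (-0.14, SE 0.06).

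A further list took genes that act on the decay of inflammatory mRNA, protectors of mRNA such as Arid5a included. Of 11 tested there, 8 were higher and none lower with both agents, against 24.8% and 22.5% of all genes. In this list 3 had a negative interaction past the threshold, against 1.83%. The Zc3h12a paralog Zc3h12c rose by 1.37 (SE 0.07), Arid5a, which protects Il6 mRNA, by 0.88 (SE 0.10), and Zfp36l2, which binds AU-rich elements, by 0.96 (SE 0.04). Of 12 TAK1 and IKK complex genes, 10 were higher and none lower with both agents, against 24.8% and 22.5% of all genes, with a median of 0.28 and none with an interaction past the threshold, and Tbk1 (0.61, SE 0.05), Tank (0.57, SE 0.05) and Ikbkg (0.55, SE 0.04) were those with the smallest p. Of 3 tested genes among 5 other CARD scaffolds, none was higher and 1 lower with both agents, against 24.8% and 22.5% of all genes. Card9 never exceeded 4 counts per library and did not enter the test. Card19 fell by 0.42 on the log2 scale (SE 0.10), and Card14, on 1 to 23 counts per library, had -1.02 (SE 0.46, edgeR adjusted p = 0.071). Card6, on 397 to 1729 counts, went the other way, at 0.13 with both agents (SE 0.06, edgeR adjusted p = 0.096) and 0.17 with palmitate (SE 0.06, edgeR adjusted p = 0.032).

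**Figure D4:**
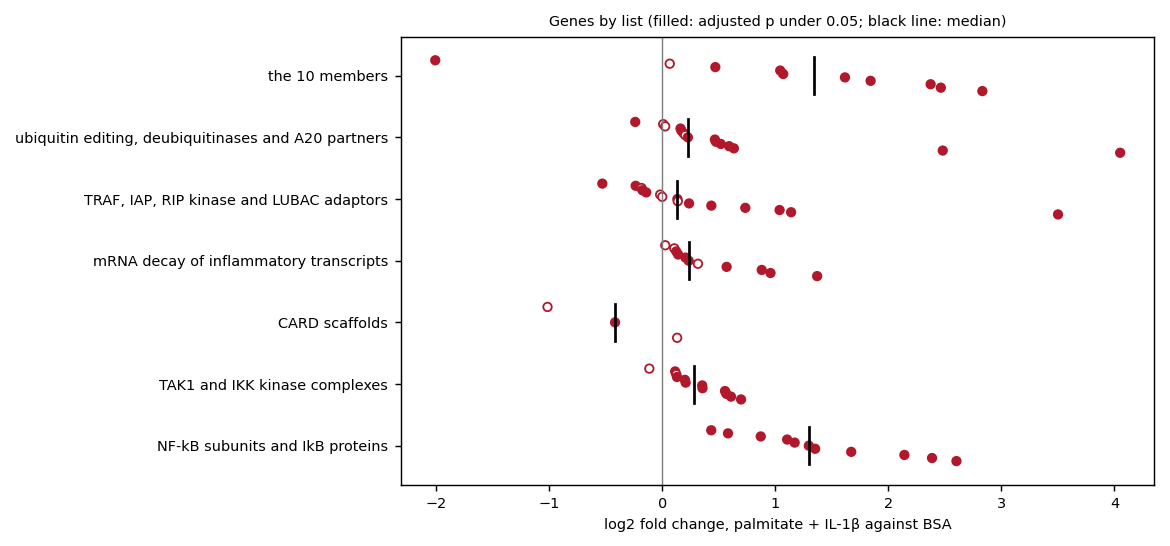
Log2 fold changes with both agents against BSA (x axis) for the 10 members and for the tested genes of the 6 other pathway lists (y axis), a point per gene, filled where the gene passed the test, and a black line at the median. The Card10 point, at -2.01, is drawn filled from the fit but is a description with no test, and its fill is not to be counted. The median is 1.34 for the 10 members, Card10 included, 1.30 for NF-κB subunits and IκB proteins and 0.23 for ubiquitin-editing partners.

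The levels of the members were compared with those of 11826 genes across the 16 libraries by Pearson correlation of log2 CPM, as a description only, since the libraries fall into 4 conditions and share them with every gene. The profiles most like Tnfaip3 were those of Nod2 (r = 0.994), Irf1 (0.993), Nfkb2 (0.992), Cxcl1 (0.991) and Rgs16 (0.990), which follow the order BSA, IL-1β, palmitate and both. Cxcl1, a neutrophil chemokine, went from 14.3 ± 1.1 to 150.8 ± 9.94, 393.4 ± 21.4 and 642.0 ± 34.9 CPM (SD, n = 4) in that order. The profiles most like Card10 were those of Cxxc5 (0.981), Lbh (0.979), Hspa1b (0.974), Tubb3 (0.966) and Tbx3 (0.965), all lowest with both agents. Cxxc5, which encodes a zinc finger protein, was at 53.4 ± 2.41 CPM in BSA, 42.7 ± 0.597 with IL-1β, 43.6 ± 1.04 with palmitate and 28.9 ± 1.77 CPM with both, a smaller relative drop than that of Card10. Among the members, r was highest for Zc3h12a with Ripk2 (0.993) and lowest for Cyld with Card10 (-0.909), and Malt1 had r between -0.221 and 0.141 with every other member.

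**Figure D5:**
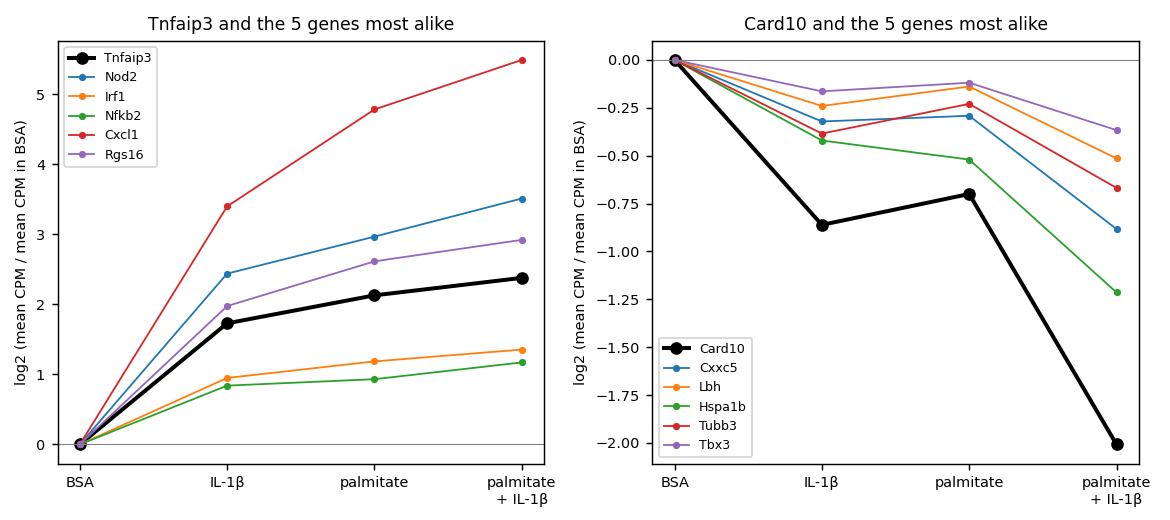
Log2 of the mean CPM over the mean CPM in BSA (y axis) in the 4 conditions (x axis) for Tnfaip3 (left, thick line) and Card10 (right, thick line), each with the 5 genes of highest Pearson r over 16 libraries, where lines only join points of a gene. The genes beside Tnfaip3 rise from BSA to the combined condition and those beside Card10 are lowest there.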

How the data were processed

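RNA of 16 libraries, 4 in each of 4 conditions, was sequenced. Per the study's methods and the submitters' processing notes, the authors used Trimmomatic 0.39 for trimming, STAR 2.7.10a for alignment to GRCm39 and HTSeq 2.0.9 for counting, and they deposited unnormalized counts per gene. A stranded kit for total RNA is named in the labels and an oligo(dT)-primed one in the methods, and which was used is not settled here. Reads assigned to no gene (18.3 to 21.4% of a library) stayed out of library sizes.

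Members and lists were chosen with earlier results of these data known. Conditions came from the sample labels, which match the column names. The counts were fitted with edgeR 4.0.16 in R 4.3.3 (glmQLFit, robust, and glmQLFTest) after TMM normalization and filterByExpr (minimum count 10, minimum total count 15), with 1 mean for each condition, no covariate and all 16 libraries together. Calls were made at a Benjamini-Hochberg adjusted p under 0.05 over 16306 genes. The fit was checked on simulated counts with the same spread for every gene and few changed genes. That shows whether planted changes are recovered, and not how well the fit or its scaling holds for these libraries.

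Levels are CPM after TMM scaling, per kilobase only between genes. Positions and exons came from GENCODE on GRCm39, in a later release than the one the study names. Text names all members, up to 3 genes per list with the smallest p with both agents against BSA among called genes with an average log2 CPM of at least 1, and the 5 genes most correlated with Tnfaip3 and Card10. Any other named gene was chosen after its values were seen. Alternatives were DESeq2 1.42.0, RLE and upper-quartile scaling, no filter, at least 10 counts in every library, only the 8 libraries compared, and leaving out each library. Replicate pairs differed by more than sampling noise (chi-square per degree of freedom 2.67 to 19.9 over 24 pairs), so no library was a copy of another. Limits set by 3 counts take in counting error alone, PCR copies being unmarked, while the 95% intervals come from the edgeR fit and include the spread between libraries.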

Additional observations from a re-analysis of the deposited data

Results flagged for a closer look

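In 4 of 40 groups of 4 libraries, 1 library stood apart from the other 3 by Dixon's criterion, and chance alone gives about 1 in 20 groups, or 2 here. Zc3h12a was at 50.8 CPM in palmitate replicate 11 against 46.0 to 46.1 CPM in the others, and Ripk2 at 181.1 CPM in palmitate replicate 9 against 187.6 to 188.5 CPM. BSA replicate 3 stood apart for both Bcl10 (23.1 CPM against 20.6 CPM) and Malt1 (16.7 CPM against 14.9 CPM).

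In 5 members, palmitate acted differently in the presence of IL-1β than in its absence, by edgeR's test of the interaction. The difference, on the log2 scale, was -1.48 for Tnfaip3, -0.60 for Tnip1, -1.60 for Zc3h12a, -0.63 for Birc3 and -1.03 for Ripk2. A negative value means a smaller log2 rise with palmitate in the presence of IL-1β, and not always a smaller rise in CPM. Birc3 with both agents was near the CPM sum of the separate rises (difference -3.74, SE 2.13). Card10 had a value of -0.44, which is the difference of the changes for which it had been picked out and so is a description, not a test result.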

How the results depend on the processing

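No paired analysis was possible because the labels number the libraries 1 to 16 and no number is shared between conditions. The number of members called under the alternatives took in Card10 for both against BSA, both against IL-1β and the interaction. Card10 is a description there, so those numbers are not given. In the other comparisons the number stayed within 1.5 times its value under every alternative. Leaving out each library in turn gave 7 to 8 with IL-1β against BSA and 4 for both against palmitate, without Card10. It gave 8 to 9 with palmitate against BSA, Card10 included, and 7 to 9 for palmitate against IL-1β, where Card10 added none. Of single fold changes, only values that did not pass the test changed sign. Bcl10 with both agents against palmitate was -0.00363 with DESeq2, -0.00303 with RLE, -0.00852 with upper-quartile scaling, -0.017 without a filter, -0.00524 with at least 10 counts in every library, -0.010 with only the 8 libraries compared, and -0.040 to 0.049 leaving out a library. Malt1 with both against BSA was -0.014 with upper-quartile scaling. Leaving out a library, Zc3h12a with both against palmitate ran from -0.070 to 0.0067 and the Malt1 interaction from -0.0064 to 0.104. Bcl10 with both against IL-1β lost its call with only the 8 libraries compared (0.20, edgeR adjusted p = 0.056), and Malt1 with palmitate against BSA gained one with upper-quartile scaling (-0.20, edgeR adjusted p = 0.047). The cause of these shifts was not tested.

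Upper-quartile scaling lowered the share of called genes that were higher from 67.1 to 43.5% with IL-1β, from 53.1 to 37.2% with palmitate and from 52.5 to 38.7% with both, against BSA, while the median over all genes moved by less than 0.1 and members kept their calls except as given above. Traf1 had under 10 counts in all 4 BSA libraries, so it had no value under the stricter filter, and DESeq2 gave it no adjusted p with IL-1β against BSA.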
